A study of Mus musculus with 12 samples.

Results

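The baseline described here is the transcriptome of untreated mouse eye organoids at day 7, held in the 4 libraries that the labels title control, replicates 1 to 4, out of 12 libraries in the series. The other 8 libraries come from organoids given an inhibitor of lactate dehydrogenase, with or without lactate, and were not used here. Organoids were reaggregated mouse embryonic stem cells, heterozygous for a knock-in of GFP at Rax, grown with serum replacement and Matrigel. The methods of the study state that the experiments were biologically independent. All 4 libraries thus share the engineered Rax allele, which is the only genetic change that the labels name, and all come from a single parental stem cell line. RNA was taken from whole organoids with no sorting, so each value is an average over every cell type present, and fewer cells of a type cannot be told apart from less RNA per cell. In the cell type label, control replicates 1 and 2 read eye organoid (set 1 below), whereas 3 and 4 read retina progenitors (set 2 below), although the latter carry eye organoid as their tissue.

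The vertebrate eye starts as a single eye field in the anterior neural plate, marked by transcription factors such as Rax, Six3, Pax6, Lhx2 and Six6. This field splits and bulges out as the optic vesicles, whose outer wall becomes neural retina and whose dorsal wall becomes retinal pigment epithelium. Organoids of this kind pass through the same steps, and can also hold forebrain, neural crest and other lineages that stem cells form. Levels are given per length, as reads per kilobase of transcript scaled to a total of 1000000 in each library (TPM), since only such values compare genes with each other. Comparisons of 1 gene between libraries use counts per 1000000 counted reads (CPM), scaled by the trimmed mean of M values (TMM), and which library was highest or lowest for a gene is read from CPM.

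The libraries held 48271386, 45819080, 26192869 and 25209097 counts in replicates 1 to 4, so set 1 was sequenced more deeply than set 2. A gene with 3 counts stood at 0.0621, 0.0655, 0.115 and 0.119 CPM in these libraries, which is the floor of detection used here and covers counting error only. No pair of libraries was a repeat of another, since chi-square per degree of freedom over genes was between 40.9 and 158. The 37 mitochondrial genes of the tables held 0 counts, so mitochondrial transcripts were not measured. On the TPM scale the median gene lay 0.09 below its mean in replicate 2 and 0.09 above it in replicate 4 (log2), a range of 0.18 that CPM do not carry, and small differences in TPM between these libraries are to be read against it.

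A total of 14068 genes were expressed, meaning at least 1 TPM in each of the 4 libraries, or 26.0% of the 54165 annotated genes in the tables. Of these, 12612 coded for protein, 57.4% of the 21983 coding genes, 244 were lincRNA and 622 processed pseudogenes. The median expressed gene stood at 27.9 TPM, 2415 genes reached a mean of 100 TPM and 62 reached 1000 TPM. The 10 highest genes took 5.02%, 5.59%, 5.06% and 4.57% of all TPM in replicates 1 to 4, and the 1000 highest took 47.7%, 49.4%, 47.1% and 45.2%. No single transcript therefore dominated a library.

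The most abundant messages were those of protein synthesis and folding. Hsp90ab1, the constitutive cytosolic HSP90 chaperone, ranked first with 6595, 6664, 7729 and 7106 TPM in replicates 1 to 4. Of the 20 highest coding genes, 8 encode cytosolic ribosomal proteins, led by Rpl8 with 6062, 6688, 5999 and 4807 TPM, lowest in replicate 4 and highest in replicate 2. Eef2, the elongation factor that moves the ribosome along the message, was even over the libraries at 4963 ± 171 TPM (mean ± SD over the 4 libraries, as for all such values below). Eef1a1, which delivers aminoacyl-tRNA, reached 4518 ± 679 TPM, but 60.6% of the 50-base windows of its transcript also occur in other annotated genes, so its count is uncertain.

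Other leading genes belonged to the cytoskeleton, to growth and to glycolysis. Tubb5, a beta-tubulin of dividing and young neural cells, stood at 3577 ± 102 TPM, and Mdk, the heparin-binding growth factor midkine, at 3041 ± 561 TPM. Hnrnpa2b1, an RNA-binding protein of splicing, reached 2980.1 ± 162 TPM with a range of only 1.05-fold in CPM. H19, the imprinted maternal lincRNA, was the highest annotated lincRNA and ranked 7 of all genes with 5203, 3487, 4353 and 4497 TPM. The imprinted Mest ranked 18 with 2343, 2763, 2189 and 1722 TPM. The glycolytic enzymes Pkm and Aldoa were the 19th and 20th gene with 2233 ± 196 and 2054 ± 115 TPM, and Ldha, which interconverts pyruvate and lactate, ranked 26 with 1639, 1588, 1586 and 1617 TPM.

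All 9 transcription factors of the eye field list were expressed, and their median stood at the 74.0th percentile of expressed genes. Within single libraries that median was 82.6, 80.3, 78.4 and 61.7 in replicates 1 to 4, so it was lowest in replicate 4. Sox2, a factor of neural progenitors and of stem cells, was the highest with 504, 453, 524 and 736 TPM and ranked 180 of 14068 expressed genes. Its gene (GRCm38, chr3:34650405-34652461, plus strand) was highest in replicate 4. Lhx2, a LIM homeodomain factor needed for the optic vesicle, followed with 483, 389.9, 395 and 290.4 TPM at rank 354. The gene of Lhx2 (chr2:38339281-38369733, plus strand) was lowest in replicate 4, with a range of 1.84-fold in CPM. Otx2, which specifies forebrain and later pigment epithelium, stood at 246, 181, 373 and 219 TPM, highest in replicate 3.

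Pax6, the paired-domain regulator of eye development (chr2:105668900-105697364, plus strand), reached 234, 146, 213 and 139 TPM at rank 1105. Replicates 1 and 3 were above replicates 2 and 4 for this gene. Six3, which keeps the anterior neural plate free of Wnt signaling, stood at 83.9, 59.1, 81.6 and 45.5 TPM at rank 3686, and its 4 values gave the order 1, 3, 2, 4. Six3os1, on the opposite strand and partly over the same bases, held 8259, 6596, 3882 and 2043 counts against 5429, 3750, 2738 and 1434 for Six3 in replicates 1 to 4. Without a stated strand setting, reads of these overlapping genes cannot be told apart, so the level of Six3 is uncertain. Rax, the homeobox gene that carries GFP at 1 allele, stood near the middle of expressed genes with 43.0, 28.5, 40.6 and 16.5 TPM and rank 6514. Its ranks in single libraries were 5355, 6607, 5656 and 9049, lowest in expression in replicate 4. Whether reads of the GFP allele were counted on Rax was not tested, so this level need not cover both alleles.

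**Figure D1:**
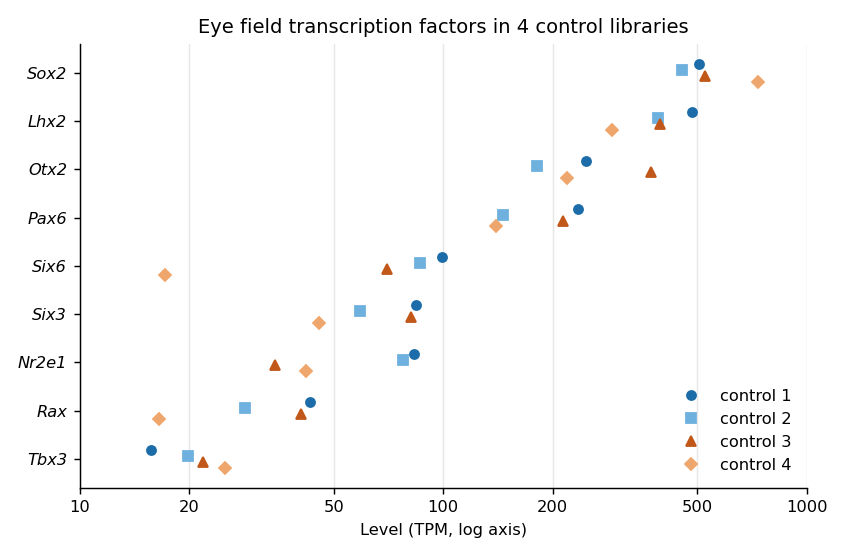
TPM (log axis) of the 9 eye field factors in control replicates 1 to 4, each library with its own symbol. Sox2 and Lhx2 lead with means of 554 and 389.7 TPM, and the point of Six6 for replicate 4 lies far below the other 3.

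Six6, a homeobox factor of retinal progenitors, was the least even member with 99.0, 86.1, 69.9 and 17.1 TPM, a range of 6.39-fold in CPM with replicate 4 alone below. Nr2e1, an orphan nuclear receptor that keeps neural progenitors dividing, reached 82.9, 77.3, 34.4 and 41.9 TPM, higher in both libraries of set 1. Tbx3, a T-box factor of the early eye field, was the lowest member with 15.7, 19.9, 21.8 and 25.1 TPM. Summed over the list, the eye field stood at 1793, 1441, 1754 and 1531 TPM, a range of 1.24-fold. Sox2 was highest and Six6 lowest in replicate 4, so members did not share 1 order of libraries. In CPM the highest library was replicate 1 in 6 of the 9 factors (21.2% of all 14470 genes with enough counts), replicate 4 in 2 (27.9%), replicate 3 in 1 (19%) and replicate 2 in none (31.9%). The lowest was replicate 4 in 5 (34%), replicate 2 in 2 (30.1%), and replicates 1 and 3 in 1 each (15.4% and 20.5%). The 5 markers chosen for the cell type label (Rax, Six3, Pax6, Lhx2 and Sox2) were expressed in every library of either set. Expression in all libraries cannot tell the labels eye organoid and retina progenitors apart. In replicate 4, of set 2, Rax, Six3, Pax6 and Lhx2 were at their lowest in CPM and Sox2 at its highest.

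Genes of the optic vesicle and neural retina were expressed for 25 of 28 list members, with a median of 51.2 TPM. Sfrp1, a secreted Wnt antagonist of the optic vesicle, stood at 282, 193, 288 and 258 TPM, lowest in replicate 2. Shisa2, which retains Wnt and FGF receptors in the endoplasmic reticulum, stood at 322, 328, 276 and 92.7 TPM with replicate 4 below the other 3. Aldh1a3, the retinoic acid synthesizing enzyme of the ventral optic cup, gave 228, 175, 137 and 60.1 TPM, lowest in replicate 4. Aldh1a1, its dorsal counterpart, gave 44.3, 1.28, 10.9 and 182 TPM, highest in replicate 4 and lowest in replicate 2. These enzymes catalyze the same step, and each was at an opposite end in replicate 4.

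The factors of the dorsoventral axis of the optic cup were likewise uneven. Vax2, a ventral homeobox factor, held 124, 127, 43.7 and 20.7 TPM. Its relative Vax1 held 20.8, 24.4, 4.51 and 4.81 TPM, and both were higher in set 1. Tbx5, a dorsal T-box factor, held 3.48, 0.0736, 2.59 and 7.64 TPM, under 1 TPM in replicate 2 with 241, 5, 93 and 258 counts. Tbx2, another dorsal factor, held 56.7, 8.78, 45.7 and 53.6 TPM, with replicate 2 again alone below. Mab21l2, needed for optic cup and lens growth, stood at 135, 66.3, 151 and 112 TPM. Hes1, an effector of Notch that delays neuron formation, was among the even members at 167, 175, 191 and 131 TPM. Of the 28 members, 16 were lowest in replicate 2, against 30.1% of all genes. In 18 the highest library exceeded the lowest at least 2-fold, against 21.7% of all genes, and in 9 at least 4-fold, against 4.96%.

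The pigment epithelium list was the least even of the eye lists, and 9 of 16 members were expressed. This epithelium makes melanin through the enzymes Tyr, Tyrp1 and Dct on a scaffold of Pmel, under the factor Mitf, and recycles retinoids for the photoreceptors. Pmel was the highest member with 677, 56.6, 294 and 509.7 TPM, highest in replicate 1 and lowest in replicate 2. Trpm1, a cation channel of melanocytes and retina, gave 468, 119.6, 242 and 255 TPM. Dct, dopachrome tautomerase, gave 361, 66.4, 143 and 232 TPM. Replicate 2 was the lowest library for all 3.

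Tyrp1 held 16.2, 0.682, 4.59 and 24.2 TPM. Tyr, the rate-limiting enzyme of melanin, held 9.51, 0.0384, 0.345 and 14.4 TPM. Tyr rested on 1010, 4, 19 and 746 counts, so it was near the floor in replicates 2 and 3 and well above it in replicates 1 and 4. Mitf itself ranged 2.15-fold, with 47.3, 22.3, 52.6 and 45.3 TPM. Rlbp1, a retinaldehyde-binding protein, gave 42.9, 14.1, 41.8 and 34.3 TPM. Summed over the 16 members, the list stood at 1791, 358, 887 and 1282 TPM, a range of 5.0-fold. Of 13 members with enough counts to rank, 11 were lowest in replicate 2 (30.1% of all genes) and 8 were highest in replicate 1 (21.2% of all genes). Rpe65, the isomerase of the visual cycle, had 0 counts in all 4 libraries, and Lrat and Mlana stayed under 1 TPM on average.

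The 3 melanin enzymes are shown with their promoters because replicate 2 was lowest and replicates 1 and 4 were highest for all of them. The sequences are the 250 bases before the gene start from RefSeq (GRCm38.p6), 5′ to 3′ along the gene, with the letters TCATGTG or their reverse complement in capitals. These letters are the core of the M-box, the element that Mitf is known to bind.
Tyr (chr7:87493513-87493762, minus strand): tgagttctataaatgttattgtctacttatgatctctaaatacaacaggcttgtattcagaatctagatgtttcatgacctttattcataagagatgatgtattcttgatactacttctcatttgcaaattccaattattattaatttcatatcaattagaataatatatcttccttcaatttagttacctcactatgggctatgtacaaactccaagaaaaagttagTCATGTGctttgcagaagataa
Tyrp1 (chr4:80833963-80834212, plus strand): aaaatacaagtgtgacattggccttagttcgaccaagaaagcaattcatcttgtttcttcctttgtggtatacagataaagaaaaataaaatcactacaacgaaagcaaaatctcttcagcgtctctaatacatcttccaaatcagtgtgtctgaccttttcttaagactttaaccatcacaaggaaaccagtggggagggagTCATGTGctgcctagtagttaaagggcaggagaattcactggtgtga
Dct (chr14:118052247-118052496, minus strand): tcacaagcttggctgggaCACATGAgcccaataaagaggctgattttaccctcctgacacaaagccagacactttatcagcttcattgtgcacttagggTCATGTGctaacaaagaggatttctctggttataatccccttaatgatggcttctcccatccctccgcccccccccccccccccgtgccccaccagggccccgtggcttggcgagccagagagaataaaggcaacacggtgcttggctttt
Searched on both strands from 250 bases before to 50 after the start, TCATGTG occurred in 4 of the 11 pigment genes with a promoter in the table (Tyr, Tyrp1, Dct and Trpm1). It also occurred in 2 of the 14 genes of the ATF4 list described below (Asns and Slc7a11), in none of 7 eye field genes, and in 1239 of all 32851 promoters, or 3.77%. The match is between letters only, and Mitf binding was not measured.

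Markers of differentiated retina and of lens were mostly near 0. Of the retinal neuron and photoreceptor list, 4 of 18 members were expressed, with a median of 0.220 TPM. Pou4f1, a factor of sensory and ganglion neurons, was the highest with 4.45, 3.39, 10.1 and 20.3 TPM. Atoh7, which starts ganglion cell fate, held 35, 17, 2 and 101 counts. Crx, of photoreceptor precursors, held 63, 10, 68 and 138 counts, and both were highest in replicate 4. Nrl, a factor of photoreceptors, held 5, 0, 0 and 9 counts. Opn1mw, a cone opsin, had 0 counts in every library. Of the lens and surface ectoderm list 2 of 16 members were expressed, among them Eya1, which is also used outside the lens, at 13.2 ± 4.05 TPM. Cryaa, an alpha-crystallin of lens fibers, held 2, 0, 0 and 0 counts.

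Neural progenitor genes were all present, with 16 of 16 expressed and a median of 115 TPM, but many were uneven. Of the 16, 10 reached a 2-fold range (21.7% of all genes) and 3 a 4-fold range (4.96%). In CPM 7 were highest in replicate 4 (27.9% of all genes) and 3 were lowest there (34%), among them Sox3 and Lin28b. Vim, the intermediate filament of progenitors and mesenchyme, stood at 1807, 934, 882 and 1902 TPM. Nes, its neural partner nestin, stood at 161, 95.1, 156 and 259.5 TPM. Hmga2, a chromatin protein of early progenitors, was even at 275 ± 20.5 TPM, as was Cdh2, N-cadherin, at 207 ± 26.6 TPM. Fabp7, a lipid-binding protein of radial glia, was uneven with 269, 119, 126 and 593 TPM. Hes5, a Notch target, gave 55.0, 19.5, 13.5 and 90.1 TPM. For both genes, replicates 1 and 4 were above replicates 2 and 3.

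Neurons were also represented, and here the libraries stood far apart. All 20 members of the neuron differentiation list were expressed, with a summed level of 706, 317, 564 and 1802 TPM. Tubb3, the neuronal beta-tubulin, gave 211, 101, 162 and 537 TPM. Gap43, a growth cone protein, gave 120.3, 25.1, 72.4 and 207 TPM. Neurog2, a proneural factor, gave 37.5, 8.78, 3.99 and 59.0 TPM. Dcx, doublecortin of migrating neurons, gave 6.43, 1.99, 4.47 and 27.6 TPM. All 20 members were highest in replicate 4, against 27.9% of all genes, and 18 were lowest in replicate 2, against 30.1%. In 16 of them the range was at least 4-fold, against 4.96% of all genes. The proneural genes Neurog1 and Neurog2 and the later Nefm and Map2 had the same highest library, among early and late neuron genes alike.

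The lists of telencephalon, diencephalon with hypothalamus, and midbrain with hindbrain had 7 of 14, 8 of 16 and 11 of 14 members expressed, with medians of 7.20, 6.11 and 10.9 TPM. Dmrta2, a factor of the dorsal forebrain, reached 159 ± 16.8 TPM and Emx2, of the cortical primordium, 128 ± 29.6 TPM. Tbr1, of early cortical neurons, gave 13.0, 2.01, 0.386 and 24.8 TPM, with replicates 2 and 3 below replicates 1 and 4. Wnt8b, of the dorsal midline and diencephalon, gave 76.3, 26.8, 121 and 202 TPM. The hypothalamic factor Nkx2-1 held 17, 19, 4 and 0 counts and Shh 16, 9, 5 and 18 counts, so both were low in every library. Wnt1, of the midbrain and dorsal midline, gave 31.2, 20.6, 77.2 and 64.2 TPM. En2, of the midbrain and hindbrain border, gave 4.95, 7.60, 6.75 and 27.8 TPM.

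Of the Hox and Cdx genes 10 of 42 were expressed, with a median of 0.694 TPM. Cdx1 was the highest at 8.16, 19, 17.3 and 6.60 TPM. Hoxb1, which marks the hindbrain and posterior tissue, followed at 6.76, 16.9, 8.20 and 16.0 TPM. Hoxb9, of the trunk, held 16, 25, 52 and 296 counts and was highest in replicate 4. Hoxc6 and Hoxc8 held 4, 5, 31 and 35 and 2, 6, 18 and 30 counts, in the same direction. Of 15 members with enough counts to rank, 11 were highest in replicate 4 (27.9% of all genes). Hoxd10 and Hoxd4 had 0 counts in all libraries.

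Pluripotency genes were still detected at day 7. All 12 genes of the naive list were expressed at a median of 17.0 TPM. Nanog, a core factor of the naive state, stood at 53.7, 109, 90.3 and 75.2 TPM. Zfp42, also called Rex1, stood at 37.9, 77.2, 63.4 and 63.2 TPM. Pou5f1, the core factor Oct4, gave 59.5, 160.2, 67.0 and 81.2 TPM. Lin28a, an RNA-binding protein of stem cells and early progenitors, gave 186, 358, 366 and 114 TPM. Fgf5, a gene of the primed epiblast, was low with 1.73, 8.47, 0.614 and 1.87 TPM. Replicate 2 was the highest library in 10 of 12 naive genes and in 10 of 12 core and primed genes, against 31.9% of all genes. Esrrb, an orphan receptor of naive cells, gave 25.1, 46.5, 36.3 and 45.0 TPM, present in each library and not in replicate 2 alone. Germline genes that DNA methylation normally silences were mostly expressed too (11 of 14), led by Rhox5 with 257, 504, 339 and 276 TPM. Two-cell-like genes stayed low, with 2 of 10 expressed, and Zscan4d at 1.98, 3.34, 5.84 and 2.41 TPM was highest in replicate 3.

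Endoderm genes were expressed for 12 of 14 members, at a summed level of 299, 598, 269 and 171 TPM. Cldn6, a tight junction protein of embryonic epithelia, led with 86.5, 197, 82.5 and 58.5 TPM. Sox17, a factor of endoderm, gave 38.9, 37.6, 27.2 and 18.5 TPM. Gata6, of primitive endoderm, gave 14.5, 36.1, 18.5 and 5.34 TPM. Ttr, the secreted transthyretin, gave 18.9, 63.0, 17.6 and 8.07 TPM. Afp, alpha-fetoprotein, held 11.7, 23.1, 8.18 and 1.13 TPM. Of 13 members ranked, 12 were highest in replicate 2 (31.9% of all genes) and all 13 were lowest in replicate 4 (34% of all genes). Cer1, of anterior visceral endoderm, held 0, 24, 0 and 0 counts, all of them in replicate 2. Early mesoderm was sparse, with 4 of 14 expressed and T, brachyury, at 12, 42, 9 and 61 counts. Of the blood and endothelium list 4 of 14 were expressed, with Pecam1, an adhesion protein of endothelium and of stem cells, at 12.6, 25.7, 21.3 and 15.2 TPM and Ptprc, of blood cells, at 0, 0, 0 and 3 counts. Hba-x, an embryonic globin gene, had 0 counts in all libraries.

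Neural crest and mesenchyme genes were present in every library and uneven. All 14 crest genes were expressed, with Msx1, a homeobox factor of the dorsal neural tube and crest, at 58.1, 38.8, 147 and 118 TPM. Sox10, of migrating crest and glia, gave 11.2, 3.57, 15.3 and 34.8 TPM. Of the 14, 10 were highest in replicate 4 (27.9% of all genes) and 10 were lowest in replicate 2 (30.1%). Twist1, a factor of mesenchyme, gave 36.9, 14.5, 69.2 and 175 TPM. The fibrillar collagen gene Col3a1 gave 25.0, 9.13, 38.8 and 167 TPM, and Col1a2 11.9, 6.24, 20.7 and 98.4 TPM. Of the 20 genes in the mesenchyme and matrix list 16 were highest in replicate 4 (27.9% of all genes). Sparc, a matrix glycoprotein that parietal endoderm also makes, went the other way with 1075, 1884, 845 and 539 TPM and dominated the sum of the list.

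The basement membrane genes ranked high, at a median of 181 TPM and the 92.0th percentile, with all 12 expressed. Col4a1, a chain of collagen IV, reached 658, 1147, 687 and 339.9 TPM. Lama1, an alpha chain of laminin, reached 128, 277, 153 and 62.0 TPM. Of the 12, 8 were highest in replicate 2 (31.9% of all genes) and 10 were lowest in replicate 4 (34%). Agrn, agrin, and Dag1, dystroglycan, were even at 184 ± 16.6 and 177 ± 8.81 TPM. Simple epithelium genes were expressed for 11 of 12 members, led by Krt18 with 229.8, 156, 231 and 331 TPM.

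**Figure D2:**
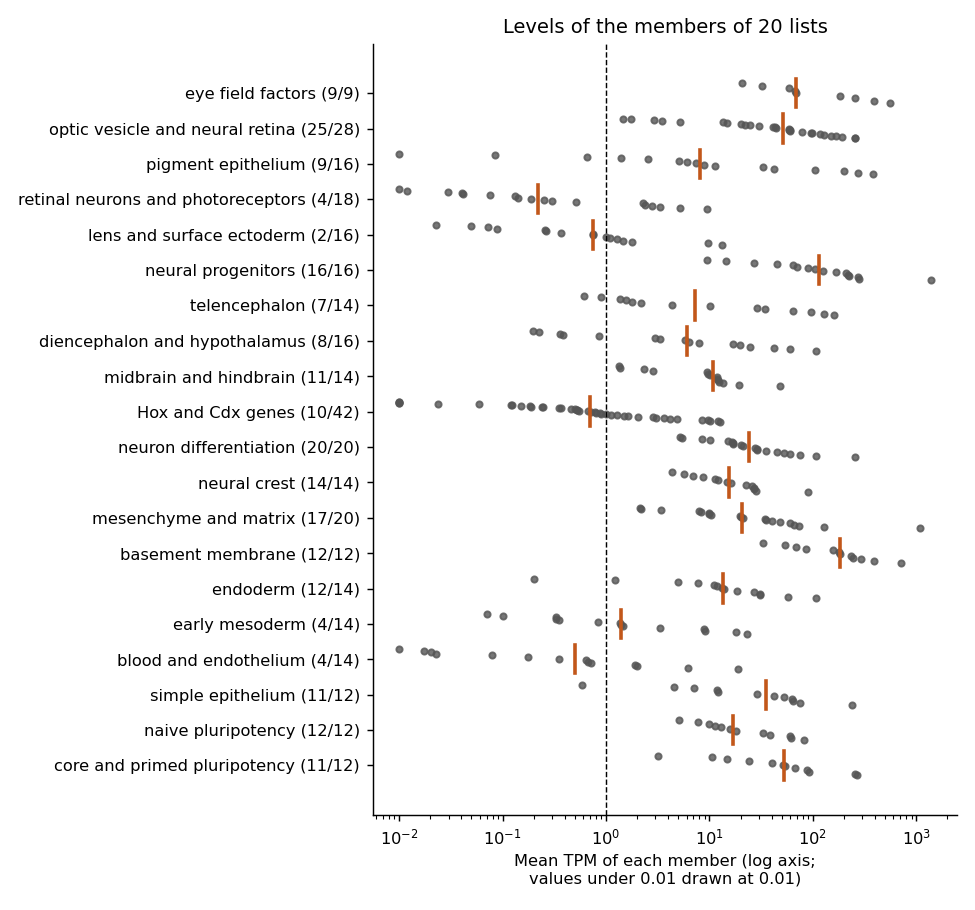
Mean TPM over the 4 control libraries (log axis) of each member of 20 lists, 1 point per gene, with an orange bar at the median of the list, a dashed line at 1 TPM, and the number of expressed members over all members beside each name. Basement membrane and neural progenitor genes have medians above 100 TPM, while the medians of retinal neuron, lens, blood and Hox genes fall under 1 TPM.

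The lists of glycolysis and of the citric acid cycle were high and even. All 20 genes of glycolysis and lactate transport were expressed, at a summed level of 10606, 10591, 11796 and 11066 TPM and the 92.5th percentile by median. Slc2a1, the glucose transporter GLUT1, stood at 611, 638, 737 and 640.4 TPM. Slc2a3, GLUT3, stood at 436, 683, 724 and 532 TPM. Ldhb, the other main lactate dehydrogenase subunit, reached 549, 638, 551 and 451 TPM, against a mean of 1607 TPM for Ldha. The lactate carriers Slc16a3 and Slc16a1 stood at 139.7 ± 29.5 and 109 ± 20.6 TPM. The libraries differed at least 2-fold in 1 of the 20 genes, which was Gapdh. Gapdh was listed at only 14.4 ± 4.17 TPM, but 82.5% of its 50-base windows occur in other annotated genes, so its level is uncertain.

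Genes of pyruvate entry and the citric acid cycle were as even, at 3052, 3109, 3072 and 3022 TPM, with no gene at a 2-fold range among 15 ranked. Mdh2, mitochondrial malate dehydrogenase, led with 590.4 ± 58.3 TPM and Cs, citrate synthase, had 378 ± 21.0 TPM. Cholesterol synthesis genes, such as Hmgcs1 with 385, 293, 258 and 491 TPM, were lowest in replicate 3 in 13 of 14 cases, and 20.5% of all genes were lowest there. Immediate early genes were low to moderate, with Ier2 at 176, 182, 158 and 172 TPM and Egr1, a factor that growth signals induce, at 6.18, 5.01, 5.77 and 14.8 TPM, highest in replicate 4. Of the heat shock list 9 of 10 were expressed, and Hsph1, a chaperone cofactor, stood at 129, 122, 137 and 189 TPM. Hypoxia-inducible genes were moderate, with Ddit4 at 215, 160.3, 222 and 417 TPM and Vegfa at 104, 85.4, 78.3 and 116 TPM, while Car9, carbonic anhydrase 9, held 26, 38, 23 and 6 counts. The cell cycle list was expressed in full. Top2a, topoisomerase II alpha, stood at 385, 384, 541 and 582 TPM and Mki67 at 105, 93.8, 182 and 172 TPM. The list as a whole did not share that order. Of its 16 genes, 8 were highest in replicate 2 (31.9% of all genes) and 9 lowest in replicate 4 (34%). Mcm5 gave 379, 457, 389 and 372 TPM. Cdkn1c, an inhibitor that marks cells leaving the cycle, was uneven at 42.2, 17.9, 14.2 and 32.4 TPM, highest in replicate 1.

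Enzymes that add or remove histone acetylation were all expressed (19 of 19) at a median of 40.8 TPM. Hdac2 was the highest at 276 ± 27.7 TPM, and Ep300, the acetyltransferase p300, gave 61.0 ± 11.0 TPM. Crebbp, its paralog CBP, had 12.6, 10.8, 22.2 and 25.5 TPM and was the only gene of this list with a 2-fold range. Among common reference genes Ywhaz, a 14-3-3 protein, was the most even with a range of 1.04-fold in CPM, whereas Rplp0 and Ppia, a ribosomal stalk protein and cyclophilin A, ranged 2.04-fold and 2.27-fold. Hprt was listed at 22, 30, 9 and 8 counts. Y-linked genes were expressed in each library, with Ddx3y, an RNA helicase, at 45.9, 41.1, 42.7 and 42.4 TPM, even over the libraries. Of the hosts of small nucleolar RNAs, Gas5 stood at 147, 151, 122 and 110.1 TPM, and 3 of 13 members ranked reached a 2-fold range (21.7% of all genes). Between the sets, compared below, 7 of the 13 tested had an unadjusted p under 0.05 in edgeR with set 2 lower (8.28% of all genes), and DESeq2 called 3 lower (2.34% of all genes).

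Imprinted genes took a large share, with a summed level of 10653, 8490.2, 9517 and 10752 TPM. Beside H19 and Mest, Nnat, neuronatin of neural tissue, reached 1519, 888, 1141 and 2326 TPM and Peg10, a retrotransposon-derived gene, 341, 339, 483 and 821 TPM. Igf2, the growth factor that shares its imprinted domain with H19, held only 1.34, 0.651, 7.20 and 4.20 TPM. Rian and Meg3, maternal noncoding RNAs of the Dlk1 domain, gave 196, 191, 127 and 85.7 TPM and 45.5, 30.2, 18.0 and 18.5 TPM. Dlk1 itself gave 27.5, 27, 14.5 and 9.68 TPM. These 3 genes of 1 domain were higher in both libraries of set 1, but the list as a whole went both ways. Of its 20 genes, 6 had an unadjusted p under 0.05 in edgeR with set 2 higher (9.11% of all genes) and 4 with set 2 lower (8.28%). DESeq2 called 4 higher (3.65% of all genes) and 4 lower (2.34%).

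Components of the main signaling pathways were nearly all expressed. Of retinoic acid genes, 14 of 15 were, and the binding proteins Crabp2 and Crabp1 were among the highest genes at 1475, 1378, 1909 and 1417 TPM (Crabp2) and 954, 1109.9, 1090.4 and 1534 TPM (Crabp1). Cyp26a1, which degrades retinoic acid, gave 43.4, 81.0, 36.8 and 20.9 TPM. Of the Wnt list all 14 were expressed, with the antagonist Sfrp2 at 502, 423, 343 and 339 TPM. The ligand Wnt7b stood at 224, 145, 149 and 257 TPM, and the feedback target Axin2 at 78.1, 47.0, 114 and 131 TPM, lowest in replicate 2. The BMP target Id3 led its list with 727, 446, 873 and 1045 TPM, and Bmp4, a dorsal ligand of the optic vesicle, gave 35.8, 29.8, 45.6 and 60.4 TPM. Of the 14 BMP genes 10 were lowest in replicate 2 (30.1% of all genes).

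Fgfr1 led the FGF list with 135, 119, 145 and 181 TPM. The feedback target Dusp6 gave 70.4, 78.3, 126 and 123 TPM and Spry1 25.2, 32.4, 55.1 and 55.1 TPM, and both were higher in set 2. Fgf15, a ligand of retina and forebrain, gave 56.5, 74.7, 23.9 and 84.5 TPM, lowest in replicate 3. In the Hedgehog list the coreceptor Gas1 stood at 202, 117, 304 and 329 TPM and the transducer Smo at 235, 208, 229 and 207 TPM. The pathway target Gli1 had 24.7, 20.4, 9.54 and 15.5 TPM, higher in both libraries of set 1, whereas Gas1 was higher in both of set 2. Of the 12 Hedgehog genes tested, 3 had an unadjusted p under 0.05 in edgeR with set 2 higher (9.11% of all genes) and 4 with set 2 lower (8.28%). DESeq2 called 3 higher (3.65% of all genes) and 3 lower (2.34%). Of the Nodal list 8 of 10 were expressed, and Lefty1, a feedback antagonist of Nodal, stood at 9.97, 61.9, 2.03 and 2.38 TPM with replicate 2 far above the others. Nodal itself gave 9.80, 20.8, 6.49 and 8.97 TPM with the same highest library.

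To see which genes vary most between the libraries, 14470 genes with at least 1 CPM in at least 2 libraries were ranked by the SD of log2 CPM. The median SD was 0.25, the 90th percentile 0.67 and the 95th 0.894. In 3145 genes (21.7%) the highest library exceeded the lowest at least 2-fold, and in 717 (4.96%) at least 4-fold. Without replicate 2 the latter count was 359, and without replicate 4 it was 343, against 641 without replicate 1 and 618 without replicate 3. The biological coefficient of variation in edgeR was 28.1% over the 4 libraries taken as 1 group and 23.5% within the 2 sets. Replicates 2 and 4 were the least alike pair, with 2099 genes differing at least 2-fold and a correlation of log2 CPM across genes of 0.935. Replicates 1 and 2 differed in 939 genes, the fewest, with a correlation of 0.975. Genes are not independent replicates, and these correlations describe the libraries only.

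The position of the largest gap between the 4 ordered values says which libraries stood apart for a gene. Among the 717 genes with a 4-fold range, replicate 4 stood alone above in 188 (26.2%), against 9.4% of all genes, and replicate 2 alone below in 156 (21.8%), against 11.3%. Replicate 2 stood alone above in 65 and replicate 4 alone below in 58. The 2 labelled sets were divided in 100 of these genes, 56 with set 2 above and 44 with set 1 above, or 7.81% and 6.14%. Among all genes the sets were divided in 9.53% and 12.8%. Replicates 2 and 3 together lay below 1 and 4 in 67 (9.34%), against 5.04% of all genes. The largest ranges thus had replicate 4 or replicate 2 on 1 side more often than the division by label.

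**Figure D3:**
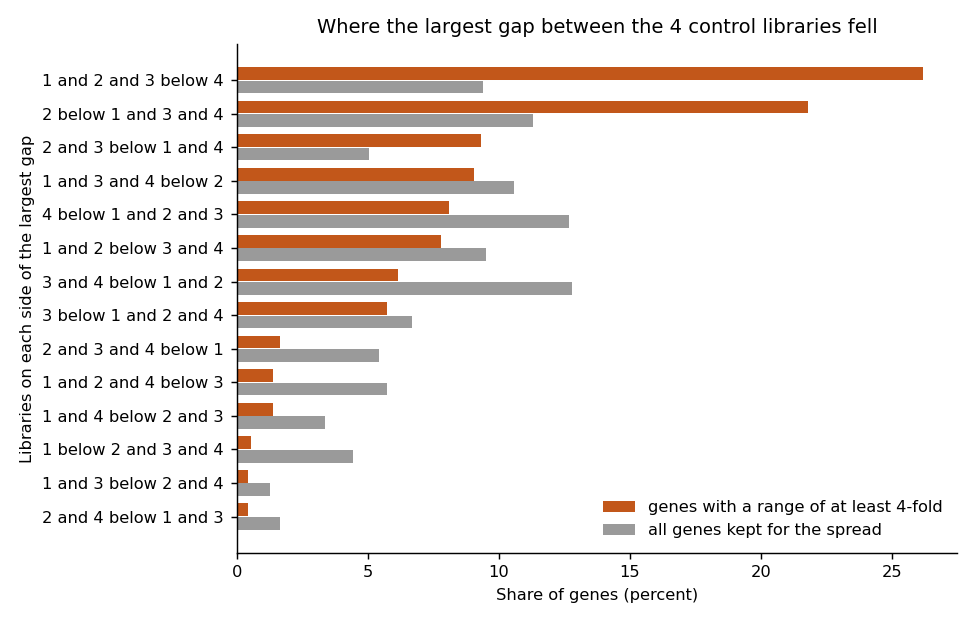
Share of genes (percent) by which control replicates lie on each side of the largest gap in the ordered log2 CPM, for 717 genes with a range of at least 4-fold (orange) and for all 14470 genes (gray). The 2 longest orange bars are replicate 4 alone above (26.2%) and replicate 2 alone below (21.8%).

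The 20 genes with the largest SD at a mean of at least 5 CPM came from few programs. Pigment cell genes were among them with Tyr, Tyrp1, Gpnmb, a melanosome glycoprotein, and Tspan10, a tetraspanin of pigment epithelium. Gpnmb (chr6:49036546-49070929, plus strand) held 61.4, 0.952, 3.14 and 64.7 CPM in replicates 1 to 4, and Tspan10 36.5, 0.864, 5.93 and 27.2 CPM. Both were higher in replicates 1 and 4 than in replicates 2 and 3. Matrix and mesenchyme genes formed a further group. Postn, periostin (chr3:54361109-54391037, plus strand), held 65.3, 1.64, 43.4 and 178 CPM. Col6a3, of collagen VI, held 3.72, 0.288, 5.20 and 46.3 CPM, and Col1a1, of collagen I, 5.35, 1.68, 11.4 and 61.5 CPM. Tnc, tenascin C, held 1.13, 0.487, 1.15 and 18.5 CPM, but 8030451A03Rik overlaps it and its count is uncertain. All 4 were highest in replicate 4 and lowest in replicate 2.

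Genes of endoderm and absorptive epithelium made the opposite group. Cubn, the endocytic receptor cubilin of visceral endoderm, held 26.7, 284, 66.3 and 7.24 CPM. Apob, apolipoprotein B, held 15.8, 109.9, 12.6 and 1.82 CPM. Apoa1, apolipoprotein A1, held 4.95, 14.8, 1.49 and 0.193 CPM. All 3 were highest in replicate 2 and lowest in replicate 4. Pga5, a pepsinogen gene, was likewise highest in replicate 2 and lowest in replicate 4 with 35.1, 131, 11.2 and 2.67 CPM. Gm13270 overlaps Cubn, so the count of Cubn is uncertain. Gkn2, a gastrokine gene, held 16.1, 6.07, 0.153 and 0.0387 CPM and was higher in set 1, with 770, 274, 4 and 1 counts. Among signaling genes Dkk2, a Wnt antagonist, held 4.53, 0.266, 1.38 and 26.0 CPM and Lefty1 5.93, 38.3, 1.15 and 1.28 CPM. Robo3, an axon guidance receptor of commissural neurons, held 5.47, 1.22, 1.34 and 26.4 CPM. Aldh1a1 (chr19:20492715-20643465, plus strand) had 38.4, 1.15, 8.95 and 142 CPM. It ranged 118-fold, on 1837, 52, 234 and 3671 counts. Tbr1, described with the forebrain genes, held 19, 3.06, 0.535 and 32.7 CPM, lowest in replicate 3. The 2 remaining genes, Hist1h2bb and Hist1h2bf, divided the sets and are described with them.

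**Figure D4:**
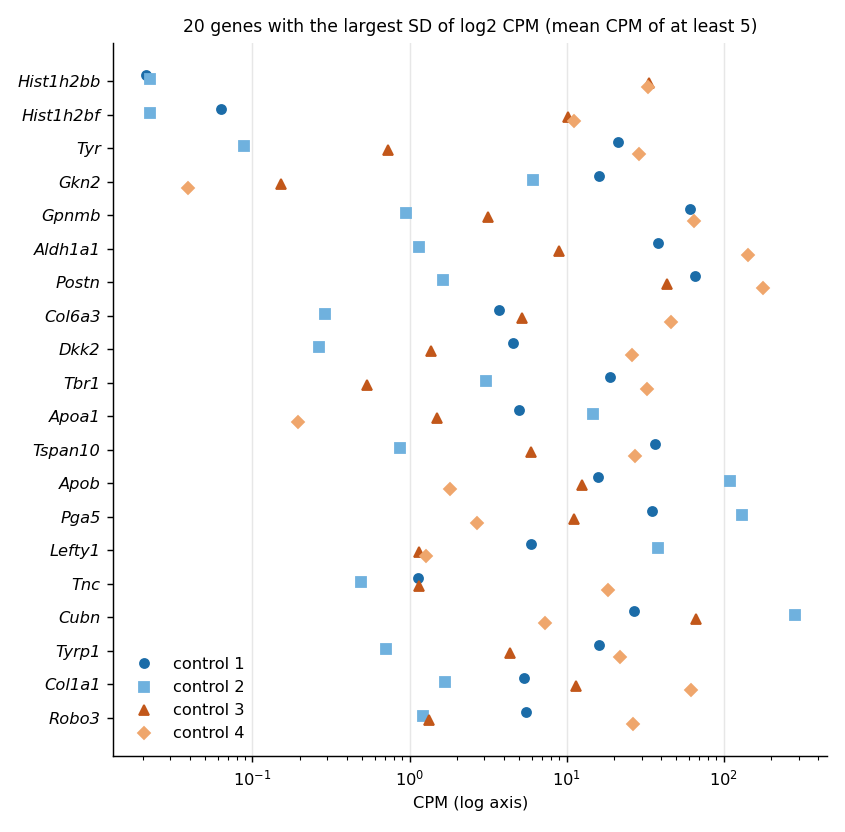
CPM (log axis) in control replicates 1 to 4 of the 20 genes with the largest SD of log2 CPM at a mean of at least 5 CPM, in order of SD. Pigment genes such as Tyr lie high in replicates 1 and 4, collagen genes highest in replicate 4, and Cubn, Apob and Apoa1 highest in replicate 2.

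Of 44 gene lists, 15 had a summed level in TPM that differed at least 2-fold between the highest and the lowest library, and 14 did when the counts were scaled by TMM before division by length. The highest and the lowest library were the same on both scales for 26 of the 44 lists. Neuron differentiation was the most uneven (5.68-fold), followed by pigment epithelium (5.0-fold) and the list of retinal neurons and photoreceptors (4.54-fold). The sums of that last list were only 15.7, 12.2, 25.6 and 55.3 TPM in replicates 1 to 4. Pou4f1, its highest member, is also counted in the midbrain and hindbrain list. Endoderm differed 3.51-fold and neural crest 3.21-fold. At the other end, glycolysis differed 1.11-fold and the citric acid cycle 1.03-fold in TPM, against 1.12-fold and 1.18-fold with TMM scaling. Replicate 4 had the highest sum in 9 of these 15 lists, and replicate 2 in 4. In CPM, 60 of 78 ranked cytosolic ribosomal protein genes were highest in replicate 2 (31.9% of all genes) and 63 lowest in replicate 4 (34%). A 2-fold range was reached by 27 of them (21.7% of all genes), with a median SD of 0.398, and the list had sums of 55199, 65023, 51116 and 42674 TPM.

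**Figure D5:**
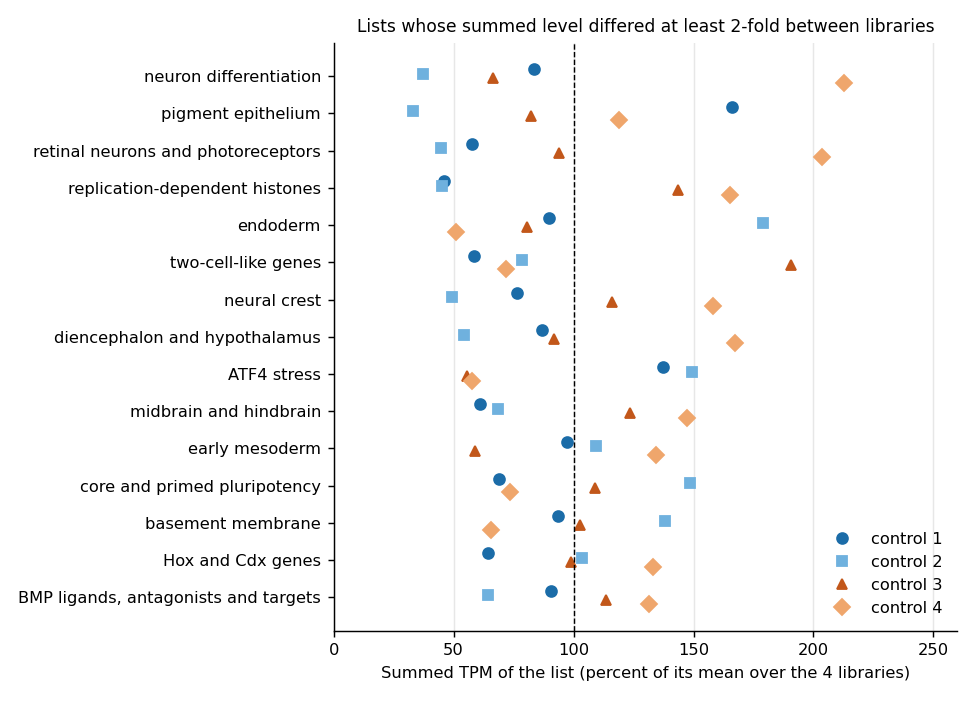
Summed TPM of each of the 15 lists with a range of at least 2-fold, as percent of the mean over control replicates 1 to 4 (dashed line at 100). Neuron, crest and retinal neuron lists lie highest in replicate 4 and lowest in replicate 2, the pigment list lies highest in replicate 1, and the ATF4 list separates replicates 1 and 2 from 3 and 4.

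Whether the libraries labelled retina progenitors (set 2) differed from those labelled eye organoid (set 1) was tested with edgeR's quasi-likelihood test over 17420 genes. The label cannot be told apart from sequencing depth, since both libraries of set 1 are deeper. At an adjusted p (Benjamini-Hochberg) under 0.05, 4 genes (0.023%) were higher in set 2 and 6 (0.0344%) were lower. At an unadjusted p under 0.05, 1587 genes (9.11%) were higher and 1442 (8.28%) lower. Without replicate 1 edgeR gave 0 calls and 2395 genes at an unadjusted p under 0.05, and without replicate 2 it gave 0 and 1185. Without replicate 3 or without replicate 4 it gave 1 call, Hist1h2bb both times, with the lone library of a set taken to vary like the other set. With all 4 libraries DESeq2 called 547 of 14972 genes higher (3.65%) and 351 lower (2.34%), so the number of calls depends on the tool. For a single gene an exact permutation test of 2 against 2 libraries cannot give a two-sided p under 0.333.

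The 6 genes lower in set 2 were regulators or targets of the amino acid response, in which the factor ATF4 turns on amino acid transport, synthesis and tRNA charging. Atf4 itself held 174, 203, 60.0 and 57.2 CPM, a log2 difference (set 2 minus set 1) of -1.66 ± 0.12 (SE, edgeR adjusted p = 0.0496). That call was lost with RLE size factors (edgeR adjusted p = 0.0539) and with at least 10 counts in every library (edgeR adjusted p = 0.0593), and its adjusted p ranged from 6.03e-17 (DESeq2) to 0.343 (edgeR without replicate 1) over all alternatives. With at least 10 counts in every library all 6 calls were lost, at adjusted p of 0.0567 to 0.0593 in edgeR. Atf5, a related factor, held 265, 254, 42.3 and 53.7 CPM, with a difference of -2.41 ± 0.15 (edgeR adjusted p = 0.0453), but it overlaps Nup62 and Il4i1 and its count is uncertain. The transporters of cationic and large neutral amino acids were lower as well. Slc7a3 held 64.2, 84.7, 9.37 and 9.29 CPM, Slc7a5 453, 499.6, 149.6 and 136 CPM and Slc7a1 186, 205, 56.4 and 58.9 CPM, with adjusted p in edgeR of 0.0453, 0.0473 and 0.0453. Cars, the cysteinyl-tRNA synthetase, held 157, 168, 58.9 and 56.1 CPM (edgeR adjusted p = 0.0473). In all 6, both libraries of set 2 lay below both of set 1.

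Of the 14 genes in the ATF4 stress list, edgeR called 2 lower (0.0344% of all genes tested) and none higher (0.023%). In the lower direction 11 had an unadjusted p under 0.05 in edgeR, against 8.28% of all genes tested. The 2 called genes are among the 6 above. Like the other lists, this one was made with earlier results of these data known, so its counts are not separate support for those calls. DESeq2, run as an alternative, called 11 lower and none higher, against 2.34% and 3.65% of all genes. The median log2 difference was -1.43, against -0.01 over the genes kept for the spread. Psat1, of serine synthesis, gave 639, 769, 237 and 213 TPM. Asns, asparagine synthetase, gave 506, 667, 273 and 280.2 TPM. Slc7a11, the cystine carrier, gave 18.6, 11.4, 1.46 and 2.30 TPM. Chac1, which degrades glutathione, gave 23.8, 23.8, 4.89 and 6.06 TPM, and Trib3, a pseudokinase, 32.5, 33.1, 8.49 and 7.20 TPM. These did not pass the adjusted test singly. Cebpb, which also belongs to the list, was not lower, at 7.79, 9.91, 13.0 and 16.8 TPM.

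Promoters of Asns and Chac1 are shown because the known C/EBP-ATF element of the amino acid response lies in them. The 250 bases before the gene start from RefSeq (GRCm38.p6) are given, 5′ to 3′, with TGATGNAA or its reverse complement in capitals.
Asns (chr6:7693210-7693459, minus strand): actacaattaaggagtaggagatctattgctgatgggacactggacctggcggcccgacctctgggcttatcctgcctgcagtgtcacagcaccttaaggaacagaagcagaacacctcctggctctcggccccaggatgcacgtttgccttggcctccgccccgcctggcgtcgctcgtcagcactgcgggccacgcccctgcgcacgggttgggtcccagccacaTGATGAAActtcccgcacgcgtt
Chac1 (chr2:119350992-119351241, plus strand): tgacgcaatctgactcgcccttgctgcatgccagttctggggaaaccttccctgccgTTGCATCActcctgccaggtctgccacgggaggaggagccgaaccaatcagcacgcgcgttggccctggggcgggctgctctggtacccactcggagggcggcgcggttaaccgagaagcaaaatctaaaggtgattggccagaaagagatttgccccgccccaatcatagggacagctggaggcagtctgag
On both strands, TGATGNAA occurred in 5 of the 14 genes of the list from 250 bases before to 50 after the start (Asns, Chac1, Trib3, Vldlr and Slc7a11), and in 1304 of all 32851 promoters (3.97%). It also occurred in Tyr and Rpe65 of the pigment list and in none of 7 eye field genes. Letters alone do not show that ATF4 was bound.

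The 4 genes higher in set 2 were 2 replication-dependent histone genes and 2 noncoding genes. Hist1h2bb, which encodes a histone H2B, held 1, 1, 875 and 852 counts in replicates 1 to 4 (edgeR adjusted p = 0.00527), and Hist1h2bf held 3, 1, 266 and 290 counts (edgeR adjusted p = 0.0453). Both were at or under the floor of 3 counts in set 1, and 40.1% and 65.8% of their windows occur in other annotated genes. Gm12957, a processed pseudogene, held 0, 1, 225 and 224 counts (edgeR adjusted p = 0.0473). Mir6236, annotated as a miRNA of 123 bases, held 84.2, 84.4, 303 and 261 CPM (edgeR adjusted p = 0.0473). The annotated rRNA gene CT010467.1 held 630.3, 666, 2178 and 1824 TPM, in the same order of sets, and its part in the result was not tested. Hist1h2bm, another H2B gene, held 0, 6, 161 and 226 counts with no call, and 6 of the 67 histone genes were expressed in all 4 libraries. The libraries were made from poly(A) RNA, so counts of a transcript without a poly(A) tail do not give its level. Whether this bears on the genes of this paragraph was not tested.

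Targets of p53 lay mostly on the other side. Of 12, none was called by edgeR and 3 higher by DESeq2 (3.65% of all genes), 6 had an unadjusted p under 0.05 with set 2 higher, against 9.11% of all genes, and 1, Mdm2, the ubiquitin ligase of p53, with set 2 lower at 134, 128, 103 and 101 TPM. Zmat3, an RNA-binding target, gave 46.1, 45.3, 95.6 and 96.1 TPM. Ccng1, cyclin G1, gave 211, 223, 353 and 317 TPM. Cdkn1a, the cell cycle inhibitor p21, gave 110.5, 114, 159.8 and 192 TPM. Of 14 neural crest genes 7 had an unadjusted p under 0.05 in edgeR with set 2 higher (9.11% of all genes). DESeq2 called 7 of the 14 higher (3.65%). For 14 midbrain and hindbrain genes these counts were 6 and 5. For 20 mesenchyme and matrix genes they were 9 and 4, with 1 lower in each. Of 13 endoderm genes tested 7 were lower at that p (8.28%) and DESeq2 called 3 lower (2.34%). No gene of these lists was called by edgeR. Of 82 ribosomal protein genes tested, none was called by edgeR, and 39 had an unadjusted p under 0.05 in edgeR with set 2 lower, against 8.28% of all genes. DESeq2 called 12 of the list lower, against 2.34% of all genes. None of the 9 eye field factors was called by edgeR and 1 had an unadjusted p under 0.05 with set 2 lower (8.28% of all genes). That factor was Nr2e1, with an adjusted p of 0.0887 in edgeR, and DESeq2 called it lower (2.34% of all genes).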

How the data were processed

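RNA from 4 control samples of untreated eye organoids was sequenced from poly(A) libraries as single reads of 50 bases. The deposited files hold raw read counts per Ensembl gene, and for these the submitters' processing notes list HTSeq 0.6.1p1 as the counter, STAR as the aligner, the build mm10 and cutadapt 1.13. Which gene annotation and strand option HTSeq ran with was not stated in the sources used, so the counts of overlapping genes are uncertain. The 8 treated libraries were not used. Of 54232 gene identifiers, 54165 matched GENCODE vM21 (GRCm38), which gave symbols, positions and lengths, and no row without a gene was counted. TPM divided counts by the length of the main transcript of a gene. A transcript was searched for 50-base windows that also occur in other annotated genes.

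CPM and log2 CPM (prior count 2) used TMM factors of edgeR 4.0.16 in R 4.3.3. The spread was taken over genes with at least 1 CPM in at least 2 libraries. The sets of 2 libraries were compared with edgeR's quasi-likelihood test and Benjamini-Hochberg adjustment at 0.05, and its p-values measure the spread between these libraries alone. On simulated counts of 17358 genes this test recovered 10% of genes changed by 1 and 94% of those changed by 2 on the log2 scale, with 4 false calls. All genes were simulated with the same dispersion, so these shares need not hold for genes of larger spread in the data. Alternatives were other size factors, filters, transcript lengths and prior counts, DESeq2 1.42.0, and each library left out. The 44 gene lists and the choice of these libraries were made with earlier results of these data known. Genes were named by rule: the 20 highest coding genes, the 20 with the largest SD, the 4 highest and 2 most variable of each list, members at 0 and genes called between sets. Other genes in the text were added for their known roles after their values were seen. Some items are not reported here.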

Additional observations from a re-analysis of the deposited data

Results flagged for a closer look

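Among 96 sets of 4 values (the sums of the gene lists and the genes named for level, spread or sets), 9 held a library whose distance to the next was above the 95% critical value of Dixon's ratio for 4 samples. Chance flags about 1 in 20 such sets, and the genes named for spread were chosen for large differences.

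Replicate 4 was the distant library for the matrix genes Col1a1 (61.5 CPM), Col6a3 (46.3 CPM) and Tnc (18.5 CPM), for the Wnt antagonist Dkk2 (26.0 CPM) and for the axon guidance receptor Robo3 (26.4 CPM). It was also the high library for the summed simple epithelium list, at 735 TPM against 539, 550.1 and 568 TPM in replicates 1 to 3. Replicate 2 was the distant library for Apob (109.9 CPM) and for Lefty1 (38.3 CPM). Replicate 3 was the distant library for the summed two-cell-like list, at 28.1 TPM against 8.65, 11.6 and 10.6 TPM in replicates 1, 2 and 4, and many of the windows of these genes occur in other annotated genes.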

How the results depend on the processing

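The number of expressed genes was between 10810 and 14509 under other lengths and thresholds and between 14234 and 14360 with 1 library left out. The median percentile of the eye field factors stood between 74.0 and 82.9 under other lengths or CPM, and between 71.9 and 79.8 with 1 library left out. Lists with a 2-fold range in their sums numbered 14 with the union of exons and 14 with TMM scaling, which was chosen after seeing the data, and 10 to 14 with 1 library left out. Genes with a 4-fold range numbered 660 to 760 under other size factors, prior counts or a minimum of 10 counts, 3088 with no filter, and 343 to 641 with 1 library left out.

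Between the sets, edgeR called 33 genes higher and 52 lower with no filter, and 0 and 0 with at least 10 counts in every library (2911 at an unadjusted p under 0.05). DESeq2 called 547 and 351. With 1 library left out, edgeR called 0 to 1 higher and 0 lower in each case (1185 to 3211 at an unadjusted p under 0.05), with fewer samples in each fit. RLE size factors gave 4 and 5 calls, losing Atf4, and library totals 4 and 8. Of the 10 genes called, 10 remained with DESeq2 and 0 with the stricter filter. That filter removed Hist1h2bb, Hist1h2bf and Gm12957, which held no more than 3 counts in either library of set 1, so they were not tested. The other called genes had an adjusted p of 0.0567 to 0.0593 in edgeR with that filter. No called gene changed direction under any alternative in which it was tested. No paired analysis was possible because only control libraries were compared and the replicate numbers of the sets differ. In the simulation, which gave all genes the same dispersion, differences of 1 on the log2 scale were mostly out of reach of the set test, with a recovery of 10%. Levels per length depend on the transcript length used, and Rax stood at 32.1 TPM with the main transcript and 18.3 with the union of exons.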
